A study of Mus musculus with 126 samples.

Results

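Among 93 single cells labelled Sox9Y440X/+, 68 epithelial cells fell into a pair of sides: 29 in which Oc90 RNA was detected and 39 in which it was not. They come from a series of 126 cells. Members were chosen by measured levels of Epcam, Foxi1 and Oc90. A cell was taken as epithelial when Epcam, an adhesion molecule of epithelia, was at 1 FPKM or more and Foxi1, the factor that drives the mitochondria-rich cells of the sac, was below 10 FPKM. FPKM is fragments per kilobase of transcript scaled to a cell's mapped fragments. Cells with Oc90 at 1 FPKM or more are called Oc90-retaining here, and those below it Oc90-negative. The rule left out 4 mutant cells by title, 12 with Epcam below 1 FPKM and 9 with Foxi1 at 10 FPKM or more. The same Epcam and Foxi1 rule kept 27 of the 33 cells labelled wild type, which are set beside both sides.

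All cells came from mouse endolymphatic sacs at embryonic stage E14.5 and were profiled by Smart-seq2, a full-length method that handles each cell as its own library. Both mutant sides carry 1 Sox9 allele with the Y440X change, a stop codon that truncates the protein, and the wild-type cells carry none. The labels name no animal, litter, strain or plate, so each genotype is 1 sample and no p-value is given. Title prefixes, which the labels do not define, differ between the mutant cells and all but 1 of the wild-type cells, and Xist, the RNA of the inactive X chromosome, was at 1 FPKM or more in 25 of 29 retaining and 37 of 39 negative cells and in 0 of 27 wild-type cells. Genotype, sex and prefix cannot be told apart in the comparisons with wild type, whereas both mutant sides share them.

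Oc90 encodes otoconin 90, the main protein of otoconia, the crystals that weigh on the sensory hairs of the balance organs. The endolymphatic sac is a blind duct of the inner ear that takes up fluid and secretes matrix into the endolymph. SOX9 and SOX10 are related SOXE transcription factors, and SOX9 activates genes through a domain at its carboxyl end, where the Y440X stop lies.

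Oc90 itself, at mm10 chr15:65876053-65912397, split the mutant cells cleanly, but the retaining cells did not hold a full wild-type level. Its lowest, median and highest values were 1.17, 132 and 5816 FPKM in the retaining cells, 0, 0 and 0 in the negative cells, and 107, 1604 and 6681 FPKM in the wild-type cells. The mean log2(FPKM + 1) was 7.49 ± 2.41 in the 29 retaining cells and 10.64 ± 1.18 in the 27 wild-type cells (SD over cells throughout). Of the retaining cells, 11 lay below the lowest wild-type cell and 18 held 100 FPKM or more. The retaining share was 42.6% of the members, with an exact binomial (Clopper-Pearson) 95% interval of 30.7 to 55.2%. Such intervals cover counting error only. Since Oc90 chose the sides, these values describe the choice.

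The thresholds fell in gaps. The lowest retaining cell had 1.17 FPKM of Oc90 and the next 16.7 FPKM, while all 39 negative cells were listed at exactly 0. The lowest Epcam value among the members was 53.1 FPKM, and the mutant cells that failed the Epcam criterion were all at 0. The highest Foxi1 value among the members was 0.989 FPKM, and the lowest among the mutant cells that failed the Foxi1 criterion was 36.4 FPKM. Outside the members, Oc90 was detected in 2 of the 9 mutant cells with Foxi1 and in 0 of the 12 mutant cells without Epcam. It was also detected in all 4 mutant-labelled cells left out by title (201 to 2007 FPKM). Those 4 cells had Xist listed at 0, as did all 27 wild-type epithelial cells, whereas every member was above 0. RNA that escaped capture would be listed at 0 too, so genes below 1 FPKM are described as not detected.

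**Figure D1:**
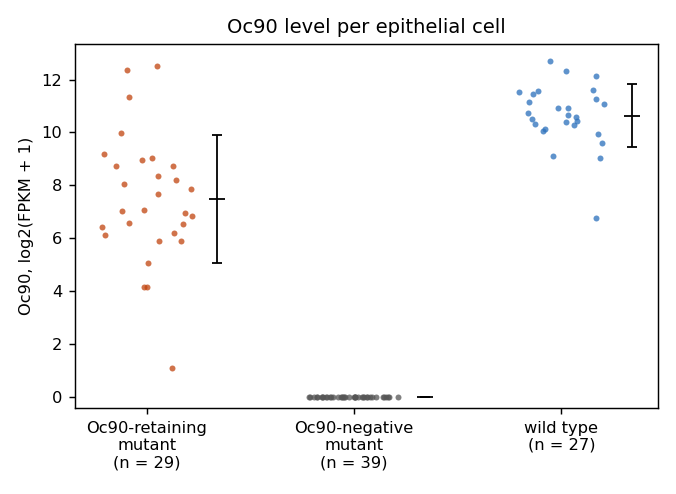
Oc90 in log2(FPKM + 1) for each epithelial cell (points), with the mean and SD over cells beside each group. The 29 retaining cells spread from 1.17 to 5816 FPKM, the 39 negative cells all sit at 0, and the 27 wild-type cells sit between 107 and 6681 FPKM.

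Measures of capture overlapped between the mutant sides. Genes listed above 0 FPKM numbered 2472 to 5686 with a median of 4378 in the retaining cells, 2035 to 7074 with a median of 4340 in the negative cells, and 2189 to 6493 with a median of 5019 in the wild-type cells. The steps between low FPKM values allow an approximate estimate of the fragments behind each cell, with medians of 5.01, 5.18 and 6.17 times 1000000 in the retaining, negative and wild-type cells. Among the 47 members with 3000 to 5000 listed genes, 21 retained Oc90 (44.7%). Of the 6 members with fewer than 3000 listed genes, 1 retained it.

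The epithelial label held on both sides. Krt8 and Krt18, keratins of simple epithelia, were detected in 29 of 29 retaining, 39 of 39 negative and 27 of 27 wild-type cells. Cldn7, a tight junction claudin, was detected in 28 retaining, 36 negative and 26 wild-type cells. Cdh1, E-cadherin, was detected in 26 of 29 retaining, 26 of 39 negative and 23 of 27 wild-type cells, a smaller share of the negative cells. Slc26a4 and Atp6v1b1, an anion exchanger and a proton pump subunit of mitochondria-rich cells, were detected in 0 cells of any of these groups. So were Pecam1 of endothelium and Ptprc of leukocytes, but other members of these lists were detected. Of 17 genes of the Foxi1 programme, which include Car2, 5 were detected in any retaining and 5 in any negative cell. Their summed medians were 46.5 FPKM (0 to 702) and 24.3 FPKM (0 to 1098.5). Of 8 endothelial markers, 3 and 2 were detected in any retaining and negative cell, and of 12 blood and immune markers, 4 and 3. Of 16 mesenchymal markers, 6 were detected in at least 1 retaining cell and 8 in at least 1 negative cell, with summed medians of 56.2 FPKM (0 to 454) and 64.4 FPKM (0 to 249.5). The summed neuronal, endothelial, melanocyte and blood markers had medians of 0 FPKM on both sides, but some cells lay above 0. The highest sums in the retaining and negative cells were 24.65 and 85.48 FPKM (neuronal) and 100.4 and 68.93 FPKM (endothelial). For the melanocyte list they were 139.59 and 103.03 FPKM, and for the blood list 72.98 and 26.14 FPKM. The melanocyte list had a wild-type median of 40.9 FPKM, with 2 and 3 of 6 detected in any retaining and negative cell. The summed glial and neural crest markers had medians of 2.84 FPKM (0 to 104.9) in the retaining, 0 FPKM (0 to 98.4) in the negative and 6.58 FPKM in the wild-type cells, with 3 and 4 of 11 detected in any retaining and negative cell. The summed hair cell and supporting cell markers had medians of 15.4 FPKM (0 to 161), 4.71 FPKM (0 to 130.1) and 21.97 FPKM in the retaining, negative and wild-type cells, with 4 of 10 detected in any cell of each side. Their part in the results was not tested. Epcam was somewhat higher in the retaining cells, at a median of 798 FPKM against 484 FPKM in the negative cells and 905 FPKM in the wild-type cells.

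Of 48490 gene identifiers in the table, 6501 other than Oc90 were detected (1 FPKM or more) in 20% or more of the 68 members and were compared. The difference in mean log2(FPKM + 1), retaining minus negative, less its median over those genes (0.016), is called the relative difference. It was 1.5 or more for 153 genes (2.35%) and -1.5 or less for 76 genes (1.17%), 229 genes together (3.52%). In the 47 members matched on listed genes, 224 genes (3.45%) lay as far up and 178 (2.74%) as far down, and 114 genes (1.75%) higher and 64 (0.984%) lower were past this fold in both. The counts were larger in the smaller set of cells, and the part that scatter between single cells has in them was not tested. They also have no replicate check.

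The genes furthest up and down are given with the stretch before their RefSeq start (build GRCm38.p6), so that the regions can be read beside the levels. Tspan7 and H2-K1 had the highest relative differences. Ptn and C1qbp had the lowest among genes with an entry, after Fam132a. Capitals mark ACAATG or ACAAAG, cores of SOX binding motifs, searched on both strands. The 4 windows of 250 bases are chrX:10484866-10485115 (plus strand) for Tspan7, chr17:34000348-34000597 (minus) for H2-K1, chr6:36810180-36810429 (minus) for Ptn and chr11:70983027-70983276 (minus) for C1qbp.
Tspan7: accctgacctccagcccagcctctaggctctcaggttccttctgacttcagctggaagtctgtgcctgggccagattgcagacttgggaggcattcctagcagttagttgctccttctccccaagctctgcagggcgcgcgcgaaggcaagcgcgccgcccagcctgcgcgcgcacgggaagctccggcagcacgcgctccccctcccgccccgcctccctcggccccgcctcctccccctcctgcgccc
H2-K1: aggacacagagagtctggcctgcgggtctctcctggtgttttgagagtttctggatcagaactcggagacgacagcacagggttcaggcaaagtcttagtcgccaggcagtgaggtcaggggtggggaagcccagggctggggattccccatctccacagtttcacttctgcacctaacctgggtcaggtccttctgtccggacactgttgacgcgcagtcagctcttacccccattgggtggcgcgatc
Ptn: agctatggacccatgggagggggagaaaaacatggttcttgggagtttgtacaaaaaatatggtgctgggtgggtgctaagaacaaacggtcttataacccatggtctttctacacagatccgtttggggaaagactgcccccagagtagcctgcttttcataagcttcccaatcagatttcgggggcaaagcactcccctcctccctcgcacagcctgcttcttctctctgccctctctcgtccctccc
C1qbp: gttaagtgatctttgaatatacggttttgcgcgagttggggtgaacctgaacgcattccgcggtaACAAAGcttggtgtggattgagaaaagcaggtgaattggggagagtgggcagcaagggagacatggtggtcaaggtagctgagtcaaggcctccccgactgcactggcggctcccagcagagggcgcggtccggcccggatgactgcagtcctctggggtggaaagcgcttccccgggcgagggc
One of these cores was found in 25.2% of the 32851 promoter windows of this length in the table. Among the ranked genes, Mmp23 (1 of 2 windows), Pla2g7, C1qbp, Arxes2 and Lef1 (1 of 4 windows) held one, a count per gene that cannot be set against the share per window. A match in letters is a description and no evidence of binding.

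Tspan7, a tetraspanin membrane protein (chrX:10485158-10596605), had the highest relative difference, 3.81. It ran from 0 through a median of 384 to 932 FPKM in the retaining cells, from 0 through 73.7 to 985 FPKM in the negative cells, and from 0 through 410.4 to 1451 FPKM in the wild-type cells. It was detected in 28 of 29 retaining (96.6%, 82.2 to 99.9%), 24 of 39 negative (61.5%, 44.6 to 76.6%) and 26 of 27 wild-type cells. The retaining and wild-type cells thus overlapped almost wholly, and the negative cells divided into a group in the same range and a group near 0.

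Bloc1s6 encodes pallidin, a subunit of a complex that builds lysosome-related organelles, and mice that lack it have otoconia defects. It was detected in 29 of 29 retaining cells, 28 of 39 negative cells (71.8%) and 27 of 27 wild-type cells, with medians of 120.1, 34.8 and 95.7 FPKM. Its lowest retaining value was 10.6 FPKM, whereas negative cells reached 0, and the relative difference was 2.65. Mmp23, a membrane-bound metalloproteinase, had medians of 597, 221 and 642 FPKM in the retaining, negative and wild-type cells and a relative difference of 2.85. Its retaining values reached 1711 FPKM and no negative cell exceeded 513 FPKM.

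H2-K1, a heavy chain of MHC class I, was detected in 21 of 29 retaining (72.4%, 52.8 to 87.3%), 13 of 39 negative (33.3%, 19.1 to 50.2%) and 20 of 27 wild-type cells. Its median was 137 FPKM in the retaining cells, 0 in the negative cells and 90.1 FPKM in the wild-type cells, and its relative difference was 3.04. H2-D1, another class I heavy chain, was detected in 24 retaining, 26 negative and 24 wild-type cells with a relative difference of 2.02. These genes are close copies of each other, and it is not stated how the authors' counting split their reads. The whole list of MHC class I and interferon genes had a median relative difference of 0.53 over 10 compared members. Of these, 2 were past the fold upward and 0 downward, beside 2.35% and 1.17% of all genes compared.

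Fxyd3, a regulator of the sodium pump (chr7:31068172-31076704), was detected in 27 of 29 retaining (93.1%, 77.2 to 99.2%), 22 of 39 negative (56.4%, 39.6 to 72.2%) and 27 of 27 wild-type cells. Its median was 194 FPKM in the retaining cells, 37.3 FPKM in the negative cells and 580.2 FPKM in the wild-type cells, so the retaining cells lay between. Its mean log2 level was 6.84 ± 2.23, 4.06 ± 3.76 and 8.92 ± 1.47, and the relative difference 2.77. Fxyd3 shares exonic sequence with Lgi4 in the annotation, and without a known strand setting their reads cannot be told apart.

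The remaining genes of the upper ranking have diverse roles. Hibadh, a mitochondrial enzyme of valine breakdown, had medians of 89.1 FPKM in the retaining cells, 0 in the negative cells and 41.3 FPKM in the wild-type cells (relative difference 2.92). Acot13, an acyl-CoA thioesterase, was detected in 24 of 29 retaining, 15 of 39 negative and 17 of 27 wild-type cells (2.64). Ptgds, a prostaglandin synthase, had medians of 191, 47.4 and 667 FPKM in the retaining, negative and wild-type cells (2.76). Pyy, a peptide hormone, was detected in 15 of 29 retaining, 7 of 39 negative and 16 of 27 wild-type cells (2.74). Sil1, a nucleotide exchange factor for the chaperone BiP, had medians of 192, 57.3 and 209 FPKM (2.61). Pla2g7, which inactivates platelet-activating factor, was detected in 14 of 29 retaining, 5 of 39 negative and 20 of 27 wild-type cells (2.60). Hibadh, Sil1 and Pla2g7 also overlap other annotated genes. In all of them values of both sides overlapped and the sides differed mainly in how many cells were listed at 0.

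Tnfrsf12a is the receptor for the cytokine TWEAK. It was detected in 26 of 29 retaining, 22 of 39 negative and 15 of 27 wild-type cells, with medians of 127.5, 25.9 and 35.01 FPKM. The relative difference was 2.65 between the retaining and negative cells and 3.04 between the retaining and wild-type cells. Acot13 and Hibadh also had higher means in the retaining than in the wild-type cells, by 1.23 and 0.92.

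**Figure D2:**
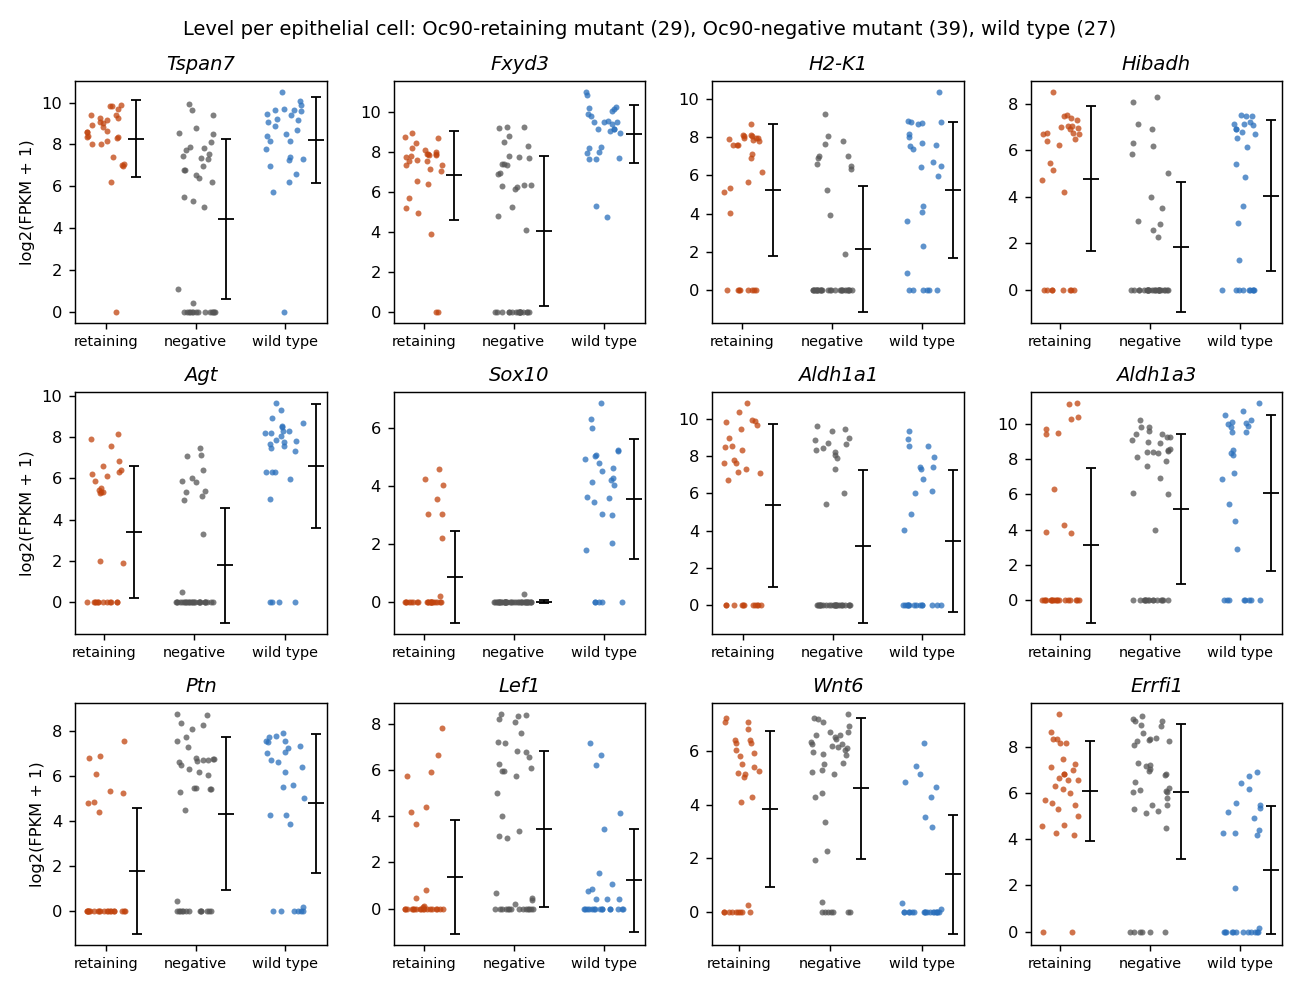
Levels of 12 genes in log2(FPKM + 1), each point a cell and each bar the mean and SD over cells, for retaining, negative and wild-type epithelial cells. Tspan7, Fxyd3, H2-K1 and Hibadh have more negative cells at 0, Sox10 is above 0 in some retaining and most wild-type cells, and Wnt6 and Errfi1 span the same range on both mutant sides.

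The genes ranked lower in the retaining cells stood in a pair of orders relative to wild type. Ptn, the secreted heparin-binding factor pleiotrophin (chr6:36714929-36810220), had a median of 0 in the retaining cells, 43.5 FPKM in the negative cells and 71.3 FPKM in the wild-type cells. It was detected in 9 of 29 retaining (15.3 to 50.8%), 25 of 39 negative (47.2 to 78.8%) and 20 of 27 wild-type cells, and its relative difference was -2.55. The negative cells were the ones in the wild-type range here. The same order held for Fam132a, a secreted protein of the C1q and TNF family, in 13 of 29, 29 of 39 and 21 of 27 cells (-2.66), and for Cav1, caveolin, in 4, 17 and 14 cells (-2.13).

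For several others the negative cells stood above both the retaining and the wild-type cells. C1qbp, a protein of the mitochondrial matrix, was detected in 13 of 29 retaining, 29 of 39 negative and 13 of 27 wild-type cells, with medians of 0.308, 99.1 and 0 FPKM and a relative difference of -2.45. Lef1, the transcription factor that carries WNT signals to DNA, was detected in 7 of 29, 21 of 39 and 7 of 27 cells (-2.08). Etfa, an electron carrier of fatty acid oxidation, was detected in 16, 34 and 18 cells (-2.10), and Dync2li1, a subunit of the ciliary dynein, in 9, 24 and 11 (-2.33). Gpr108, Fbxw5, an F-box protein of a ubiquitin ligase, and Arxes2 had relative differences of -2.08, -2.09 and -2.19. Arxes2 has a close copy in the genome, so its value is uncertain.

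**Figure D3:**
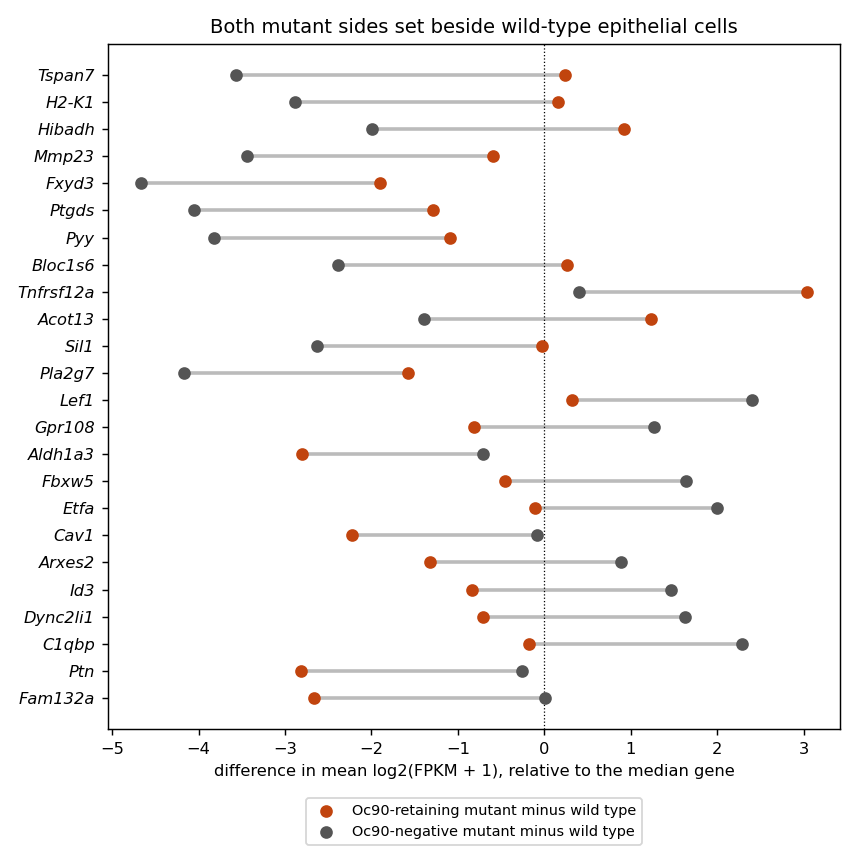
Relative difference in mean log2(FPKM + 1) of the retaining cells (red) and negative cells (grey) from wild-type cells, for the 24 ranked genes. The 12 genes ranked higher have the red point to the right, and most of them, such as Tspan7 at 0.24 and -3.57, place the retaining side nearer to 0; both points share the wild-type cells.

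SOX genes divided the sides unevenly. Sox9, at chr11:112782224-112787760, was detected in 26 of 29 retaining, 37 of 39 negative and 24 of 27 wild-type cells, with medians of 7.98, 11.5 and 10.03 FPKM and a relative difference of -0.50. FPKM over the whole gene does not tell the Y440X and wild-type alleles apart. Sox10, at chr15:79154913-79164490, was detected in 7 of 29 retaining cells (24.1%, 10.3 to 43.5%) and in 22 of 27 wild-type cells (81.5%, 61.9 to 93.7%). It was detected in 0 of 39 negative cells, where the exact interval reaches 9.03% and an allowance of 3 counts gives 7.69%. Its highest value was 22.8 FPKM in the retaining cells, 0.218 FPKM in the negative cells and 115 FPKM in the wild-type cells. It missed the detection filter and is not among the genes compared. Sox5 and Sox6 had relative differences of 0.02 and 0.17.

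The 7 retaining cells with Sox10 had Oc90 from 32.9 to 5816 FPKM with a median of 423 FPKM. The 22 without it had 1.17 to 2616 FPKM with a median of 127 FPKM. Sox10 was detected in 5 of 18 retaining cells with Oc90 at 100 FPKM or more (9.69 to 53.5%). With less Oc90 it was detected in 2 of 11 (2.28 to 51.8%), so the intervals overlapped widely. The 2 cells with the highest Oc90 of all members, 5204 and 5816 FPKM, both had Sox10. Fxyd3 was detected in all 7. Most retaining cells therefore held Oc90 without detected Sox10, among them a cell with 2616 FPKM.

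Genes lowest in mutant cells were set beside the sides as a list. The 11 genes had been chosen in earlier results as the lowest in these same mutant cells relative to wild type, so they are not independent evidence of a direction. Of the 8 that were compared, 6 were past the fold upward (Fxyd3, Pla2g7, Gpc4, Prss56, Agt and Sphk1) and 0 downward, beside 2.35% and 1.17% of all genes compared. Of these 8, 7 were positive and Pam16 was lowest at -0.31. Their median relative difference was 1.67, beside 0 over all genes. A retaining cell held 1 to 9 of the 11 at 1 FPKM or more with a median of 5, a negative cell 0 to 7 with a median of 2, and a wild-type cell 5 to 11 with a median of 9. The matched cells gave medians of 5, 2 and 9.

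Agt, angiotensinogen, was detected in 17 of 29 retaining, 12 of 39 negative and 23 of 27 wild-type cells, with medians of 37.7, 0 and 219 FPKM. Lect1, the cartilage glycoprotein chondromodulin, was detected in 6 retaining (20.7%), 1 negative (2.56%) and 19 wild-type cells (70.4%). Gpc4, a heparan sulfate proteoglycan, was detected in 19, 14 and 26 cells, and Sphk1, a sphingosine kinase, in 18, 13 and 27. BC006965, a noncoding gene beside Sox9 on chromosome 11, was detected in 11, 10 and 23 cells with a relative difference of 0.54, short of the fold. It was -0.65 in the members with Aldh1a1 above Aldh1a3 and 2.08 in those with Aldh1a3 above Aldh1a1, classes described with the retinaldehyde dehydrogenases. In each of these genes the retaining cells remained below the wild-type share.

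The list of 12 genes highest in mutant cells, chosen in the same way, showed no such split. Of 12 compared, 0 were past the fold upward and 1 downward (Cldn6), beside 2.35% and 1.17% of all genes compared. Their median relative difference was 0.02. A retaining cell held 6 to 11 of the 12 with a median of 9, a negative cell 5 to 12 with a median of 9, and a wild-type cell 0 to 8 with a median of 4. Errfi1, a feedback inhibitor of EGF receptors, was detected in 27 of 29 retaining, 33 of 39 negative and 14 of 27 wild-type cells (relative difference 0.02). Wnt10a, a WNT ligand, was detected in 21, 23 and 5 cells (0.18), and Wnt6, its neighbour on chromosome 1, in 19, 31 and 8 (-0.78). Cldn6, an embryonic claudin, had medians of 97.6, 190.5 and 35.9 FPKM (-1.76). The list includes Tsix, which overlaps Xist.

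**Figure D4:**
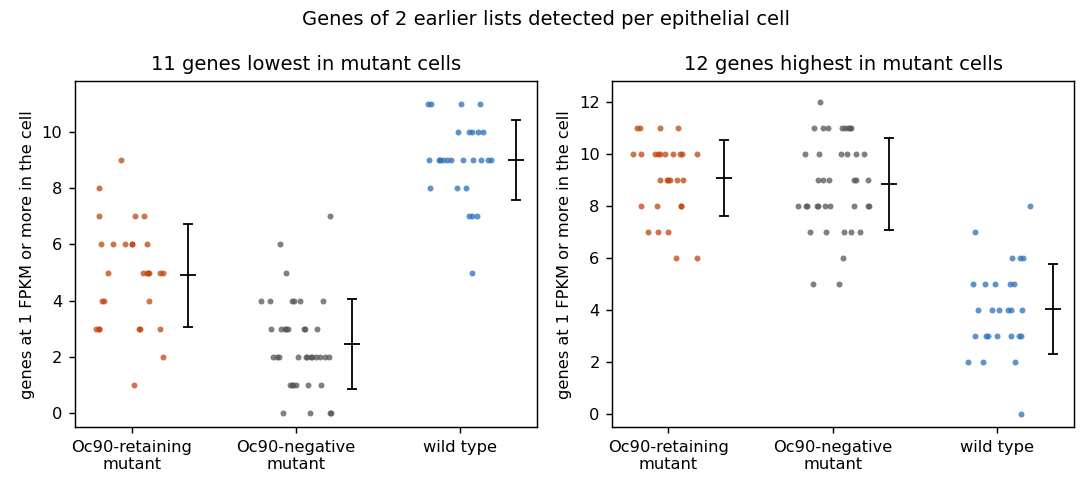
Number of the 11 genes lowest (left) and of the 12 genes highest (right) in mutant cells that are at 1 FPKM or more in each cell, with the mean and SD over cells. The left panel places the retaining cells (median 5) between the negative cells (2) and the wild-type cells (9), and the right panel gives both mutant sides a median of 9 against 4 in wild type.

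The sides also differed in the retinaldehyde dehydrogenase they held, and many values above went with it. Aldh1a1 was above Aldh1a3 in 18 of 29 retaining (62.1%), 14 of 39 negative (35.9%) and 9 of 27 wild-type cells (33.3%), and Aldh1a3 was above Aldh1a1 in 8, 24 and 16. Both enzymes make retinoic acid, and in these cells mostly 1 of them was high. Aldh1a1 had a median of 159 FPKM in the retaining cells and 0 in the negative and wild-type cells (2.19). Aldh1a3 had a median of 0 in the retaining cells, 199 FPKM in the negative cells and 305 FPKM in the wild-type cells (-2.08). Its mean FPKM ran the other way between the mutant sides, at 334 in the retaining and 287 in the negative cells. Among cells with Aldh1a1 above, 56.2% retained Oc90 (18 of 32), and among those with Aldh1a3 above, 25% did (8 of 32).

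Splitting the members by the higher of these enzymes separated the ranked genes into kinds. In the Aldh1a1 cells, Fxyd3 was detected in 18 of 18 retaining, 14 of 14 negative and 9 of 9 wild-type cells, with medians of 227, 214 and 682 FPKM and a relative difference of 0.14. In the Aldh1a3 cells it was detected in 6 of 8 retaining, 8 of 24 negative (33.3%, 15.6 to 55.3%) and 16 of 16 wild-type cells, with a relative difference of 2.32. Tspan7 was also detected in all retaining and negative Aldh1a1 cells, but with medians of 417 and 220 FPKM and a relative difference of 1.27. In the Aldh1a3 cells it was detected in 7 of 8 retaining, 9 of 24 negative and 16 of 16 wild-type cells, with a relative difference of 4.41. Every negative cell in which Fxyd3 or Tspan7 was not detected thus lay outside the Aldh1a1 cells.

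Tnfrsf12a had relative differences of 0.10 in the Aldh1a1 cells and 4.51 in the Aldh1a3 cells, where it was detected in 8 of 8 retaining, 8 of 24 negative and 7 of 16 wild-type cells. Bloc1s6 had 1.66 and 3.49, and was detected in 8 of 8 retaining against 14 of 24 negative Aldh1a3 cells. Hibadh had 3.03 and 3.12, near its 2.92 over all members, and H2-K1 1.74 and 1.79, below its 3.04. All 12 upper ranked genes were positive in both classes, and 7 were past the fold in both. The upper and lower ranked genes were chosen on these same members, so their signs in the classes are not independent evidence.

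Among the lower ranked genes, 10 of 12 were negative in both classes and 4 were past the fold in both. C1qbp had -3.52 in the Aldh1a1 cells, where 6 of 18 retaining and 12 of 14 negative cells held it, and -1.05 in the Aldh1a3 cells. Id3, a BMP target that blocks bHLH factors, had 0.04 and -0.78, although it was at -2.29 over all members. Agt had 1.31 and -0.78, and Spp1, osteopontin, 0.50 and -1.44. The differences of Id3, Agt and Spp1 over all members therefore do not hold within both classes. Fam132a was at -0.48 and -1.05, Cav1 at -1.38 and -1.41, and Lef1 at -1.08 and -1.48, past the fold in neither class.

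Sox10 was detected in 5 of 18 retaining against 0 of 14 negative Aldh1a1 cells, and in 2 of 8 retaining against 0 of 24 negative Aldh1a3 cells. Wild-type cells held it in 8 of 9 and 14 of 16. Of the 11 genes lowest in mutant cells, the Aldh1a1 cells held a median of 5 (retaining), 4 (negative) and 10 (wild type), and the Aldh1a3 cells 4.5, 2 and 9. Oc90 in the retaining cells had a median of 127 FPKM in the Aldh1a1 cells and 218 FPKM in the Aldh1a3 cells, beside 1111 and 1834 FPKM in the wild-type cells of those classes.

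Genes of otoconia and of the inner ear matrix were mostly scarce. Of 26 listed, 7 were compared. Of these, 2 were past the fold upward and 1 downward, beside 2.35% and 1.17% of all genes compared. Nox3, the NADPH oxidase that otoconia formation needs, was detected in 22 of 29 retaining (75.9%, 56.5 to 89.7%), 20 of 39 negative (51.3%, 34.8 to 67.6%) and 26 of 27 wild-type cells, with medians of 121, 1.68 and 150.5 FPKM and a relative difference of 2.20. Spp1 had medians of 576, 209 and 315 FPKM (1.77), and Agrn, the basement membrane proteoglycan agrin, was detected in 12, 26 and 19 cells (-1.57). Otol1, the collagen-like scaffold of otoconia, was detected in 0 retaining, 0 negative and 3 wild-type cells. In the Aldh1a3 cells Nox3 was detected in 3 of 8 retaining, 11 of 24 negative and 15 of 16 wild-type cells, and in the Aldh1a1 cells in 16 of 18, 9 of 14 and 9 of 9. Its order over all members was that of the Aldh1a1 cells only.

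Lysosomal genes, a list added after the values were seen, had a median relative difference of 1.07. Of 37 compared, 12 were past the fold upward (2.35% of all genes compared were), 0 downward (1.17%), and 33 were positive. Gaa, the lysosomal acid glucosidase, had medians of 76.5 FPKM in the retaining cells, 30.3 FPKM in the negative cells and 63.5 FPKM in the wild-type cells. Ctsd, the protease cathepsin D, was detected in 29 of 29 retaining, 33 of 39 negative and 27 of 27 wild-type cells, with medians of 288, 174 and 293 FPKM. The list summed to medians of 4455, 3041 and 6169 FPKM. Its median relative difference was 0.57 in the Aldh1a1 cells and 0.31 in the Aldh1a3 cells, so it was smaller inside either class than over all members.

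Genes of the secretory pathway were described in the same way. Of 36 compared genes of folding and translocation in the endoplasmic reticulum, 2 were past the fold upward (Dnajb9 and Creld2) and 0 downward. Of all genes compared, 2.35% and 1.17% were. In the list 26 were positive, with a median of 0.69. Dnajb9, a BiP co-chaperone, was detected in 26 of 29 retaining, 20 of 39 negative and 18 of 27 wild-type cells (2.18), while Hspa5, BiP itself, was at -0.01. The median of that list was 0.46 in the Aldh1a1 cells and -0.06 in the Aldh1a3 cells. Cytosolic ribosomal protein genes had a median of -0.22 over 30, of which 3 were positive, and nuclear genes of oxidative phosphorylation -0.06 over 30, with 0 past the fold in either direction.

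Signalling genes were mixed, and their counts are given beside 2.35% of all genes compared past the fold upward and 1.17% downward. Of 10 compared BMP and ID genes, Bmp7 was past the fold upward and Id3 downward. Bmp7, a BMP ligand, was detected in 25 of 29 retaining, 20 of 39 negative and 18 of 27 wild-type cells (2.35). Of 8 WNT targets and feedback genes, Dkk3 was past it upward (2.09), and Sfrp2, a secreted WNT-binding protein (-1.53), and Lef1 downward. Of 10 genes of EGF and FGF feedback only Egfr was past the fold, detected in 13 of 29 retaining, 4 of 39 negative and 12 of 27 wild-type cells (1.86). None of 9 patterning factors of the ear and sac was past it, and Dlx5, a homeobox factor of the dorsal otic epithelium, was at 0.06 and Pax2 at 0.17.

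Immediate early and heat shock genes, which tissue dissociation can also switch on, had 3 of 20 compared members past the fold upward (Dusp1, Dnajb1 and Jun), beside 2.35% of all genes, 0 downward and a median of 0.45. Dusp1 had medians of 425, 224 and 356 FPKM in the retaining, negative and wild-type cells. Their part in the other differences was not tested. Judged by 5 or more of 20 mitotic genes at 5 FPKM, cycling cells numbered 0 of 29 retaining, 2 of 39 negative and 2 of 27 wild-type cells.

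**Figure D5:**
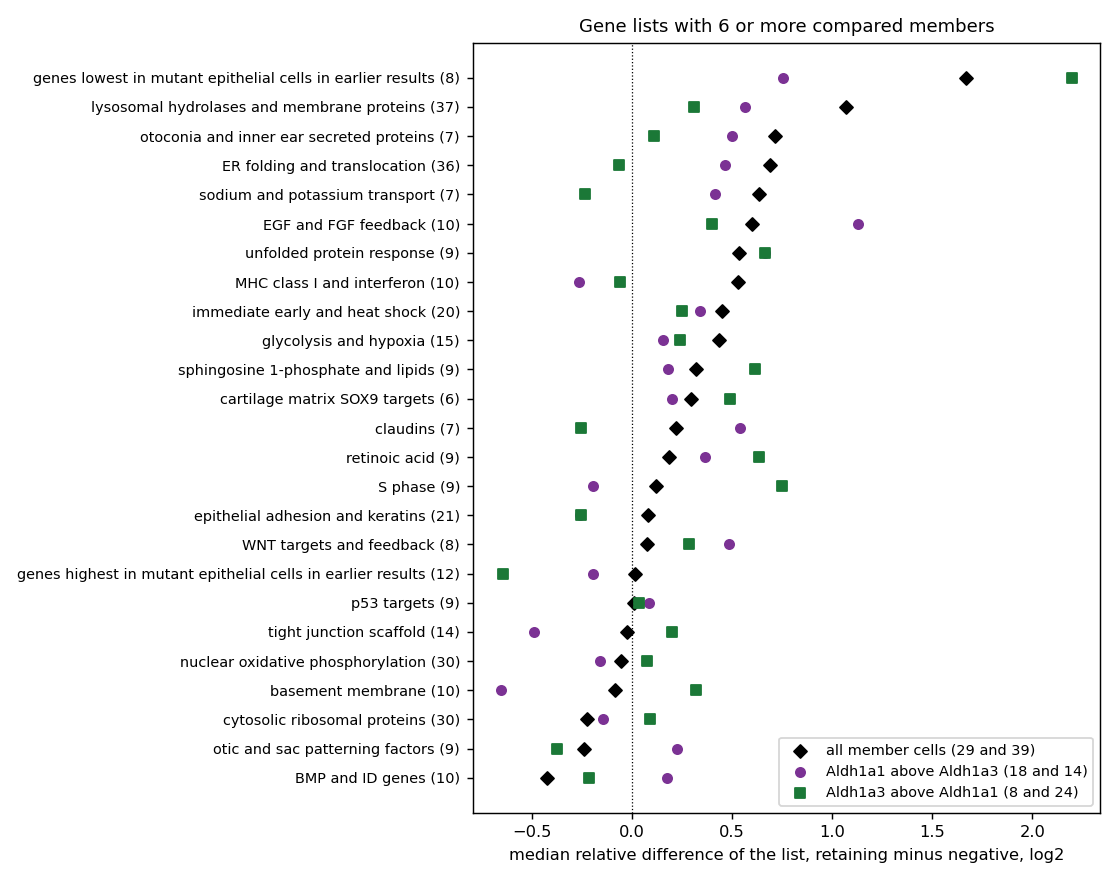
Median relative difference, retaining minus negative in log2, of each gene list with 6 or more compared members (number in brackets), over all members and within the Aldh1a1 and Aldh1a3 cells. The genes lowest in mutant cells lie at 1.67 over all members, 0.75 in the Aldh1a1 cells and 2.20 in the Aldh1a3 cells, and the lysosomal list at 1.07, 0.57 and 0.31.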

How the data were processed

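Single-cell libraries of 126 cells were read from 1 table of FPKM values that the authors deposited. Cufflinks, HISAT2, HTSeq, SAMtools 0.1.18 and the mm10 build are named in the submitters' processing notes, with no role or order. For the strand setting, annotation release and read filters, nothing was given in the sources used here. The 37 mitochondrial rows are all listed at 0. FPKM carries no read number, so no count test was possible. Fragments per cell were estimated from the steps of low values, of which 70.8% lay within 0.08 of a whole number, and are approximate.

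Members were chosen by the Epcam, Foxi1, Oc90 and title rule. Means of log2(FPKM + 1) were compared over genes detected in 20% or more of members. The relative difference is centred on the median gene. The understatement of scarce genes grows with the pseudocount of 1. A detected gene is at 1 FPKM or more. A share of 0 allows up to 3 counts of the total. Coordinates are those of the table, counted from 1. Python 3.11.15, numpy 2.4.6, scipy 1.17.1, pandas 2.3.3 and matplotlib 3.10.9 were used. The comparison was tested on simulated data. The outcome of that test is not given here, so it offers no assurance for genes listed at 0 in many cells.

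Genes named by rank are the 12 highest and 12 lowest with the same sign and 50% or more of the size in matched cells and after rescaling each cell to 1000000, leaving out haemoglobin, Y-linked and mitochondrial genes, pseudogenes and predicted genes. To these come a set of inner ear genes computed whatever their values, members past the fold or at the ends of a described list, and single members named by role (keratins, Gpc4, Hspa5, Otol1, H2-D1, marker genes). Members and lists were chosen with earlier results of these data known. Doublets were not called, as the tools need counts. Each genotype is 1 sample, so no p-value is given. Alternatives covered the pseudocount, filters, scaling, centring, detection level, cell subsets and the Oc90 threshold. The values of some list members are not reported here.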

Additional observations from a re-analysis of the deposited data

How the results depend on the processing

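No paired analysis was possible because no test was made and the labels name no animal. The count of 153 genes higher and 76 lower in the retaining cells became 521 and 367 with a pseudocount of 0.1, 12 and 1 with a pseudocount of 10, 89 and 35 with detection in 50% of members, and 259 and 161 after rescaling each cell to 1000000. It became 252 and 262 in the Aldh1a1 cells and 462 and 350 in the Aldh1a3 cells, where the retaining share was 56.25% and 25%. In matched cells it became 224 higher and 178 lower. The lower count became 160 with log2 of mean FPKM, and 121 in cells with an estimated 4 times 1000000 fragments or more. The higher counts for these alternatives are not given here. Fewer genes were tested under the stricter filter and fewer cells entered the subsets. The causes of the changed counts were not tested. Of the 153 and 76 genes, 114 and 64 stayed past the fold in matched cells, 69 and 35 in the Aldh1a1 cells, 83 and 45 in the Aldh1a3 cells, 68 and 43 in the mean of both classes, and 34 and 28 with log2 of mean FPKM. Aldh1a3 changed sign with log2 of mean FPKM (0.33). The classes are cut by Aldh1a1 and Aldh1a3 themselves, so the values of these genes inside them depend on the cut: Aldh1a3 was at 0.90 in the Aldh1a1 cells, 0.97 in the Aldh1a3 cells and 0.93 in the mean of both, and Aldh1a1 at -0.33 in the Aldh1a3 cells. In the Aldh1a3 cells Agt was at -0.78 and Spp1 at -1.44. In the Aldh1a1 cells Id3 was at 0.042, and in the mean of both classes Spp1 was at -0.47. The ranked genes kept their sign in 515 of 520 gene and alternative pairs over 22 alternatives. This was largely set by the ranking, which used these same members and required the same sign in matched cells and after rescaling. It is therefore not independent evidence of a direction. The mean of both classes, the fragment minimum, the removal of cells summing to over 1000000 FPKM and the lysosomal list were chosen after seeing the data. Detection in single cells is limited by capture, and intervals do not cover the spread between animals.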

Other observations

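Lipid and sphingosine, glycolytic and replication lists are given beside 2.35% of all genes compared past the fold upward and 1.17% downward. None of their members was past it downward. Of 9 compared genes of sphingosine 1-phosphate and lipids, Pla2g7 and Sphk1 were past it upward, with a list median of 0.32. Of 15 genes of glycolysis and hypoxia, Aldoc, a brain-type aldolase, was past it, detected in 18 of 29 retaining, 13 of 39 negative and 20 of 27 wild-type cells (relative difference 1.54). Of 9 S phase genes, only Pcna was past it. Pcna, the sliding clamp of DNA polymerase, was detected in 25 of 29 retaining, 25 of 39 negative and 18 of 27 wild-type cells (1.55). Of 9 compared genes of the unfolded protein response, 6 were positive, with a list median of 0.53. Only Psat1, an enzyme of serine synthesis, was past the fold, and downward, detected in 10, 23 and 18 cells (-1.78).

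Among structural genes, Col9a3, a collagen of cartilage and the tectorial membrane, was detected in 16 of 29 retaining, 9 of 39 negative and 19 of 27 wild-type cells (1.87), though it overlaps Tcfl5. Cdh6, a cadherin, was detected in 6 retaining, 20 negative and 4 wild-type cells (-1.68). Of 14 compared genes of the tight junction scaffold, 0 were past the fold, and the list median was -0.02. Car2, a carbonic anhydrase, was detected in 19 of 29 retaining, 17 of 39 negative and 20 of 27 wild-type cells (1.13), but was at -0.32 in the Aldh1a1 cells and 2.95 in the Aldh1a3 cells.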
